A study of Mus musculus with 2 samples.

Results

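The nuclear genes for subunits of the mitochondrial respiratory chain and ATP synthase were described in 2 single-cell RNA libraries from mouse knee cartilage. Members were the nuclear features whose symbols start with Ndufa, Ndufb, Ndufc, Ndufs or Ndufv and a digit, with Uqcr, with Cox4 to Cox8, or with Atp5. The rule took 81 of 32286 features and used no expression value. By symbol they were grouped as 38 of complex I, 8 of complex III, 18 of complex IV and 17 of complex V, the ATP synthase. The 38 include Ndufa4, now counted in complex IV, its paralog Ndufa4l2, and Ndufb1-ps, which has no protein-coding transcript in GENCODE M21. Each member had at least 1 UMI over the 2 libraries together. A UMI (unique molecular identifier) is 1 counted transcript molecule, read here near its 3′ end. The 13 protein genes of the mitochondrial genome (mt- genes) were set beside them.

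Complexes I, III and IV pass electrons along the inner mitochondrial membrane and pump protons, and ATP synthase uses the proton gradient to make ATP. Most subunits are encoded in the nucleus, translated in the cytosol and imported, while a small core is encoded and translated inside the mitochondrion, so each complex needs both genomes. Articular cartilage has no blood vessels, and its chondrocytes live at low oxygen and rely largely on glycolysis.

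Both libraries came from Procr-CreER;tdTomato mice, in which tamoxifen switches on the red protein tdTomato in cells that express Procr at that time, and in their descendants. Tamoxifen was given at 4 weeks of age in both groups. The pulse library was taken 2 days later and the trace library 4 weeks later, so the trace animals were also older. The tissue is given as knee joint cartilage, and the protocol also names periosteum among what was digested. Each library pooled 3 mice, and cells were sorted as tdTomato-positive and negative for CD45, Ter119, CD31 and DAPI. The labels call the cells superficial, and the label is limited to what the Procr-driven recombinase marks. With 1 library per group there is no replicate error and no test: intervals below are exact 95% intervals for counting error only. Chase time, age, pool, library and the apparent sex of the pools cannot be told apart.

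A cell passed with 500 or more detected genes and mt- UMIs of 10% or less. This kept 6533 of 6863 pulse and 9247 of 10423 trace barcodes, with a median of 2837 and 3645 UMIs. The libraries shared 16 barcodes. UMIs from ribosomal RNA-associated genes took 0.961% of the pulse and 8.89% of the trace total. Xist had 0.130 CPM (counts scaled to a common total per library or class) in pulse and 360 in trace, and the Y-linked Ddx3y 184 and 0.331. By these transcripts the pulse pool appeared male and the trace pool female, so every trace over pulse value also compares the sexes.

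Cells were placed in classes by the number of distinct marker genes detected. Superficial-zone chondrocyte-like cells, defined by genes such as Prg4 and Cytl1, numbered 4271 in pulse and 4973 in trace. Deeper-zone chondrocyte-like cells, defined by genes such as Matn3 and Col9a1, numbered 641 and 143. Synovial lining fibroblast-like cells numbered 247 and 718; loose connective tissue cells, also fibroblast-like, came to 178 and 752. Smaller classes were endothelial-like (53 and 332), mural-like (26 and 263) and osteoblast-like cells (32 and 163), and in trace also neutrophil-like (263), B-lineage-like (192) and progenitor-like cells (22), although the sort was set against CD31 and CD45. The label "superficial cells" therefore covered several classes. Of the 10 chondrocyte markers, 9 reached 20 CPM in superficial-zone and 10 in deeper-zone cells of each library. No zone could be set for 546 and 228 chondrocytes, and 519 and 1145 cells took no class.

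Promoters are shown for some members that stood out between zones or libraries and hold a binding motif of factors known to drive respiratory chain genes. Other members that stood out, such as Ndufs8, Cox7b, Ndufc1, Ndufa1 and Atp5e, held neither of the motifs searched and are not shown. RefSeq promoters (GRCm38.p6, 250 bases before to 50 after the annotated start) matched 66 of the 81 members. Those not matched include Ndufs1, Ndufa2, Ndufa4l2, Ndufb9, Uqcrb, Uqcrc2, Uqcrq, Cox4i1, Cox4i2, Cox6a2, Cox6c, Cox8c, Atp5a1 and Atp5mpl. The core motif of NRF1 (nuclear respiratory factor 1) was searched as GCATGCGC, and an ETS-family site as CCGGAAGT, each on both strands. The NRF1 motif was in 9 of 66 member promoters (13.6%), against 824 of 27025 promoters of all genes (3.05%) and 689 of 17492 of protein-coding genes (3.94%). The ETS site was in 5 of 66 (7.58%), against 4.31% of all and 5.69% of protein-coding genes. Capitals mark the motifs. Where the NRF1 motif occurs on both strands its matches overlap, as in Atp5g2 and Atp5k. Atp5g2 encodes a form of the membrane ring subunit c of ATP synthase (chr15:102670998-102671297, minus strand), Atp5k the membrane subunit e (chr5:108434350-108434649, minus strand), Uqcr11 a small subunit of complex III (chr10:80406772-80407071, minus strand, with 1 motif of each kind) and Ndufa8 an accessory subunit of complex I (chr2:36049289-36049588, minus strand).
Atp5g2: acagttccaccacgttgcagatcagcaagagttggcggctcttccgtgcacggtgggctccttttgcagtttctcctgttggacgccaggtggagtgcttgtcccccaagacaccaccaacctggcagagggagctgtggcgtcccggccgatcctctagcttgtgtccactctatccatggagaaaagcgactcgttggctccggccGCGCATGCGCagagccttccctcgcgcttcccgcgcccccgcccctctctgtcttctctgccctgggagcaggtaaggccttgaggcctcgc
Atp5k: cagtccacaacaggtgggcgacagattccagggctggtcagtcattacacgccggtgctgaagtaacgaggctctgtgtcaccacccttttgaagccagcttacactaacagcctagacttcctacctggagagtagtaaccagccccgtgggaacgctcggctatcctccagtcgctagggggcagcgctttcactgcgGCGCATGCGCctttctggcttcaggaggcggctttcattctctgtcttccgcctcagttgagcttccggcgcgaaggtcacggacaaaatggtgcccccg
Uqcr11: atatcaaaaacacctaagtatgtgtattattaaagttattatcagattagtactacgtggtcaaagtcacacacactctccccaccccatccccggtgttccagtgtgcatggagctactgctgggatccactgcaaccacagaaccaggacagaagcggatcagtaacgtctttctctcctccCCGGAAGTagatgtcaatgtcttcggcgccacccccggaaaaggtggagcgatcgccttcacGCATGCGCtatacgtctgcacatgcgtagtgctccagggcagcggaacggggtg
Ndufa8: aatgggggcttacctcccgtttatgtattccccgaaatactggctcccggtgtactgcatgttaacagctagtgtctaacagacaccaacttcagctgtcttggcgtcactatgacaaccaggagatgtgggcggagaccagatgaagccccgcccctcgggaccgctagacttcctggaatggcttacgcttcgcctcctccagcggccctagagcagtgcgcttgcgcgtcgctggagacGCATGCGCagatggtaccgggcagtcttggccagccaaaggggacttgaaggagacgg

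Nuclear members took a larger share of UMIs in trace than in pulse in superficial-zone cells, and a smaller share in deeper-zone cells. In superficial-zone cells their summed share was 0.605% in pulse (83890 UMIs) and 0.730% in trace (175112 UMIs), a trace over pulse ratio of 1.21 (1.20 to 1.22). In deeper-zone cells it was 1.16% and 0.819%, a ratio of 0.708 (0.693 to 0.725). The share of the median cell was 0.577% and 0.655% in superficial-zone cells and 1.14% and 0.823% in deeper-zone cells. The gap between zones, wide in pulse with a ratio of 1.91 (1.89 to 1.93), was narrower in trace, with a ratio of 1.12 (1.10 to 1.15).

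The other classes did not follow 1 direction. Synovial lining cells had 1.21% and 1.08% (ratio 0.892, 0.870 to 0.915), and loose connective tissue cells 1.02% and 0.947% (0.929, 0.899 to 0.960). Both ratios crossed 1 under another scaling: without ribosomal RNA-associated, mt- and ribosomal protein UMIs in the total they were 1.01 and 1.07. Endothelial-like cells had 0.727% and 0.561%, mural-like cells 0.824% and 1.13%, and osteoblast-like cells 0.846% and 0.855%. Progenitor-like cells of the trace library had the highest share of the 10 classes, 1.81%, while 19 of these 22 cells had 2 or more UMIs of cell-cycle genes. B-lineage-like cells had 1.23% and neutrophil-like cells 0.755%. Of these 10 classes in trace, endothelial-like and superficial-zone cells had the lowest shares.

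**Figure D1:**
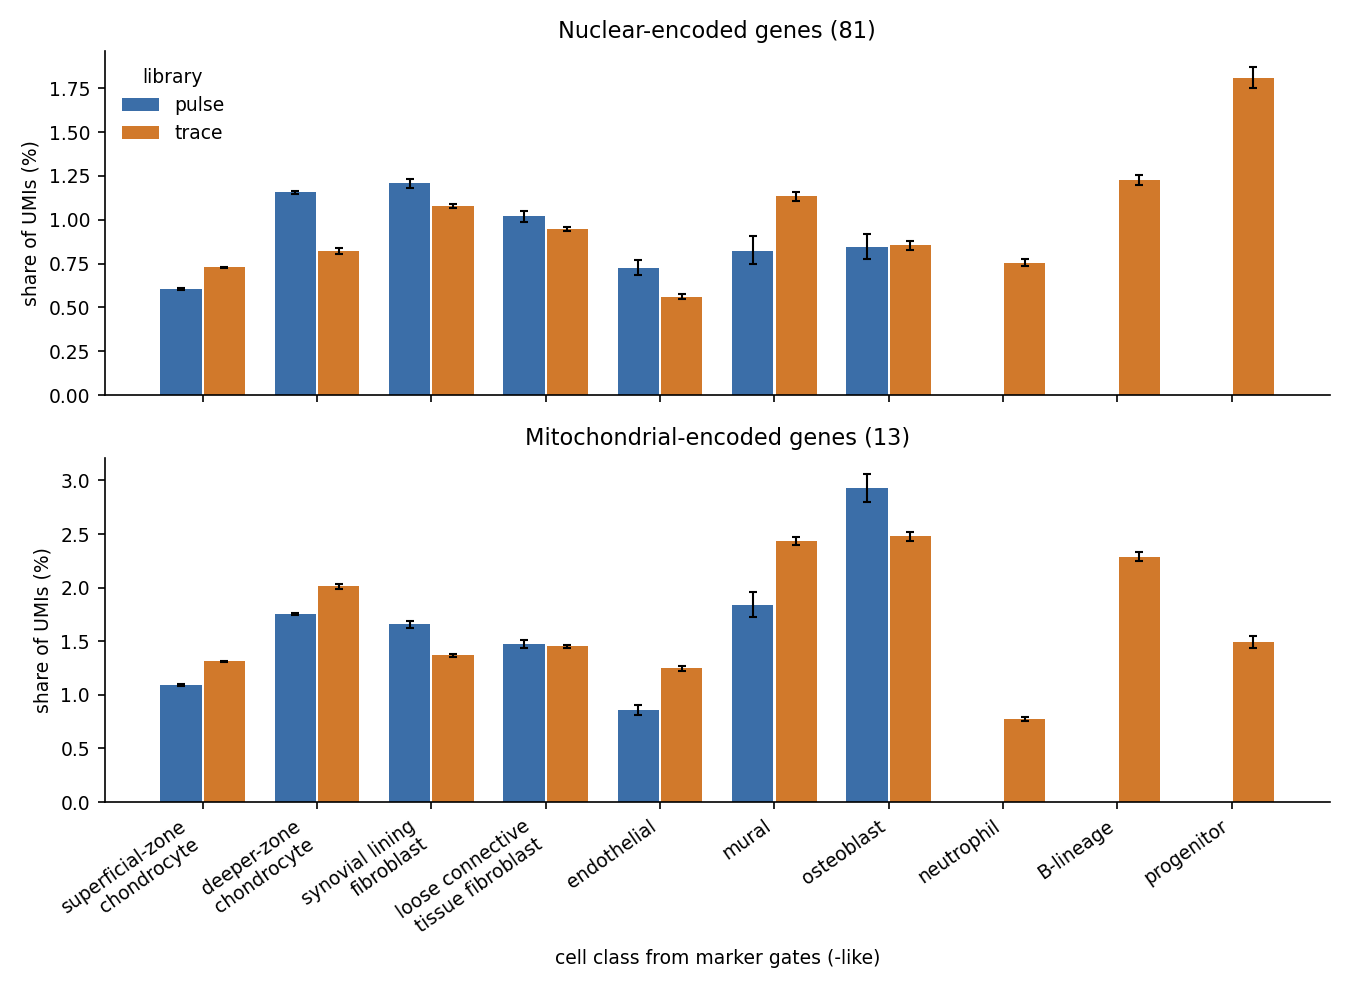
Share of UMIs from the 81 nuclear members (top) and the 13 mt- genes (bottom), in percent, for each marker-gated class in the pulse (blue) and trace (orange) library; bars start at 0 and whiskers are exact 95% intervals for counting error. The nuclear bar is higher in trace in superficial-zone cells (0.605% and 0.730%) and lower in deeper-zone cells (1.16% and 0.819%), while the mt- bar is higher in trace in both.

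Summed over all depths, the mt- genes had nearly the same trace over pulse ratio as the nuclear genes in superficial-zone cells, but not in deeper-zone or endothelial-like cells. Their share was 1.09% and 1.31% in superficial-zone cells, a ratio of 1.20, so that the nuclear to mt- ratio was 0.554 in pulse (0.549 to 0.559) and 0.556 in trace (0.553 to 0.559). By complex, however, the nuclear to mt- ratio of superficial-zone cells differed between libraries in both directions. It was 1.06 in pulse and 1.22 in trace for complex I, and 0.717 and 1.15 for III. For complex IV it was 0.269 and 0.277, and for V 0.952 and 0.616. In deeper-zone cells the mt- share was 1.75% and 2.01%, a ratio of 1.15, and the nuclear to mt- ratio was 0.659 (0.653 to 0.666) and 0.407 (0.397 to 0.418). In endothelial-like cells the mt- share was 0.855% and 1.246%, and the nuclear to mt- ratio was 0.851 (0.782 to 0.925) and 0.450 (0.436 to 0.465). For the summed ratio the intervals of the 2 libraries overlap in superficial-zone cells. Among such cells with 5000 or more UMIs, however, the summed ratio was 0.581 and 0.548. In superficial-zone cells under 2000 UMIs the nuclear share was 0.697% in pulse and 0.557% in trace while the mt- share was 1.41% and 1.56%, so there the order of the 2 differed. Nuclear UMIs were fewer per mt- UMI in trace in the other 2 classes. The ratio was 0.729 and 0.788 in synovial lining cells, 0.693 and 0.652 in loose connective tissue cells, 0.448 and 0.465 in mural-like cells, and 0.289 and 0.345 in osteoblast-like cells. In trace it was 0.970 in neutrophil-like and 1.22 in progenitor-like cells, the only one of the 10 classes named above with more nuclear than mt- UMIs. The filter at 10% mt- UMIs bounds the mt- share of every cell, and 0.801% of pulse and 1.51% of trace barcodes exceeded it.

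Within the mt- genes the subunits differed between libraries in opposite directions. The ATP synthase gene mt-Atp6 was at 1648 CPM in pulse and 3019 in trace in superficial-zone cells (1.83-fold, 1.81 to 1.86) and at 2845 and 5329 in deeper-zone cells (1.87-fold). The cytochrome b gene mt-Cytb, the only mitochondrial subunit of complex III, was at 1007 and 733 CPM in superficial-zone cells (ratio 0.727) and at 2124 and 1373 in deeper-zone cells (0.647). The complex I gene mt-Nd3 was at 53.5 and 114 CPM and mt-Atp8 at 8.07 and 27.9 in superficial-zone cells. In deeper-zone cells mt-Nd1 was at 1673 and 1005 CPM and mt-Nd2 at 1205 and 604, both lower in trace. The catalytic complex IV gene mt-Co1 was at 3067 and 4058 CPM in superficial-zone and 2589 and 3583 in deeper-zone cells. Over the 13 mt- genes, 3 (23.1%) had a ratio of 1.5 or more in superficial-zone cells, beside 7.29% of all genes at 20 CPM or more. By that fold 0 were lower there, beside 23.5% of all such genes. In deeper-zone cells 2 (15.4%) were higher, beside 8.17%. Lower there were 5 (38.5%), beside 37.2%, so that count is near the background. The mt-Atp8 and mt-Atp6 frames overlap on 1 transcript, as do mt-Nd4l and mt-Nd4, and mt-Nd6 lies opposite its neighbours, so counts within these groups are uncertain.

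Transcript length was checked because the members are short. The 80 members with a GENCODE M21 length had a median of 637 bases, from 321.5 to 2675.5, and 7202 genes lay between their 5th and 95th percentiles, 417 to 1460 bases. These like-length genes took 24.7% and 23.8% of UMIs in superficial-zone cells (ratio 0.964) and 25.6% and 24.1% in deeper-zone cells (0.941). Their summed share therefore moved little in either zone, and the members' ratios of 1.21 and 0.708 lay on either side of it. Gene by gene the picture differed: the median log2 ratio of like-length genes was -0.05 in superficial-zone and -0.38 in deeper-zone cells, against 0.26 and -0.51 for the members. Between the 25th and 75th percentiles of member length the superficial-zone sum had a ratio of 1.17, close to that of the members.

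The direction in superficial-zone cells depended on the depth of the cell. In cells with 2000 to under 5000 UMIs the nuclear share was 0.604% in pulse and 0.748% in trace, and with 5000 or more it was 0.567% and 0.729%. In the 909 pulse and 629 trace cells under 2000 UMIs it was 0.697% (0.683 to 0.710) and 0.557% (0.542 to 0.573), the opposite order. Median depth was 2939 UMIs in pulse and 4293 in trace, and the part of depth in the pooled ratio was not tested beyond these values. In deeper-zone cells the order was the same in both depth ranges, 1.03% and 0.787% from 2000 to under 5000 UMIs and 1.17% and 0.825% at 5000 or more. In synovial lining cells it was 1.53% and 0.912% under 2000 UMIs and 1.14% and 1.21% from 2000 to under 5000, and in loose connective tissue cells 1.29% and 1.07%, and 0.911% and 0.970%, so the order also turned with depth in both.

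**Figure D2:**
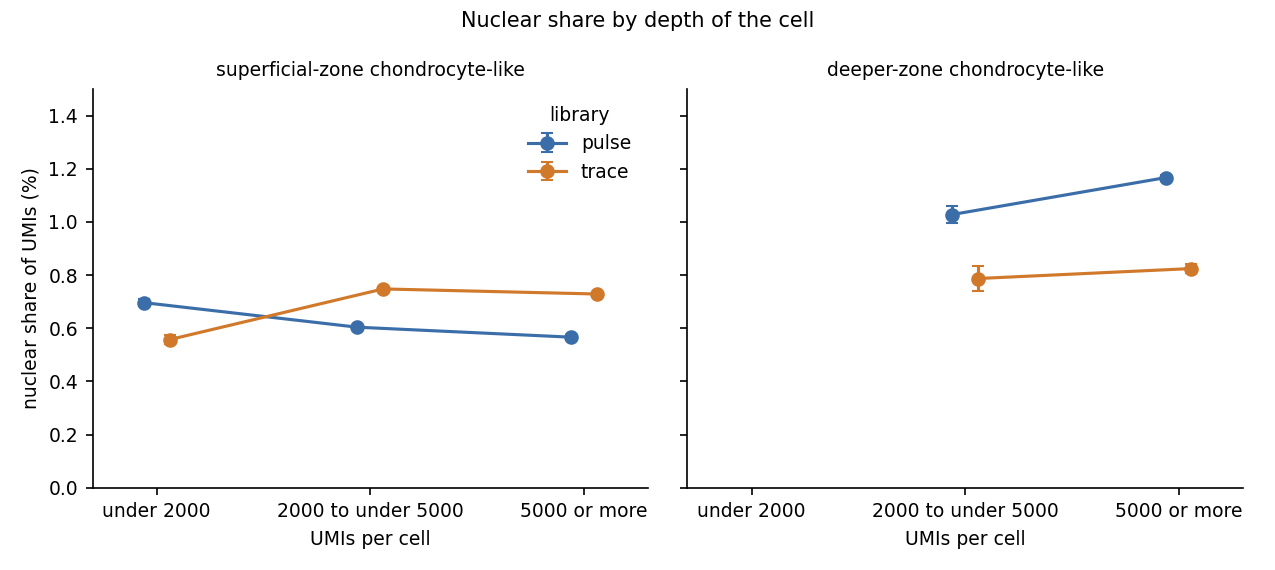
Nuclear share of UMIs in percent by UMIs per cell, for superficial-zone (left) and deeper-zone (right) cells of the pulse (blue) and trace (orange) library; points are summed over cells and whiskers are exact 95% intervals for counting error. The lines cross in superficial-zone cells between under 2000 UMIs (0.697% and 0.557%) and 2000 to under 5000 (0.604% and 0.748%), and do not cross in deeper-zone cells, where under 2000 UMIs is not drawn because fewer than 20 cells of a library lay there.

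Other values differed beside the members. UMIs of ribosomal protein genes took 5.44% and 8.58% in superficial-zone and 13.1% and 14.5% in deeper-zone cells. Cells with 2 or more cell-cycle UMIs were 258 of 641 deeper-zone cells in pulse (40.2%) and 22 of 143 in trace (15.4%). Without them the deeper-zone nuclear share was 1.12% and 0.839%, and among them alone 1.20% and 0.743%, so the order held in both. The deeper-zone cells of trace also carried more of the osteoblast markers (1449 CPM summed over 10 genes, with 1 at 0, against 246 with 2 at 0 in pulse) and more of the 8 superficial-zone markers (3492 against 1085 CPM). In superficial-zone cells the zone markers Prg4 and Cytl1 were at 8597 and 3162 CPM in pulse and 25245 and 9684 in trace. The chondrocyte markers Col2a1 and Acan were at 4712 and 3005 CPM there in pulse and 2624 and 3598 in trace. The 4 haemoglobin genes summed to 0.721 CPM in pulse and 518 in trace in superficial-zone cells. The 10 neutrophil markers summed to 160 and 299 CPM there. The part of these in the member values was not tested.

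Gene by gene, members stood out above the background in superficial-zone cells and not in deeper-zone cells. A gene was compared where it reached 20 CPM in at least 1 of the 2 samples compared, and a difference was counted from 1.5-fold. In superficial-zone cells 14 of 70 measured members (20.0%) were higher in trace, where 7.29% of all genes were, and 3 (4.29%) were lower, where 23.5% of all genes were. Their median log2 ratio was 0.26, that of all genes -0.23. In deeper-zone cells 28 of 73 (38.4%) were lower in trace beside 37.2% of all genes, and 2 (2.74%) were higher beside 8.17%. The members' median there was -0.51 and that of all genes -0.37, so their shift lay near that of all measured genes. With each ratio divided by the median of all genes the counts were 29 higher and 1 lower in superficial-zone and 4 higher and 13 lower in deeper-zone cells. The share of all genes past 1.5-fold also changes under this division and is not given here, so these counts are a description only. The 11 superficial-zone and 8 deeper-zone members under 20 CPM include Ndufa9, Ndufv1, Cox6b2, Cox7a1, Cox6a2 and Cox7b2 in both.

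All 4 complexes had the same sign. Summed per complex, the superficial-zone ratio had an interval of 1.24 to 1.27 for complex I and was 1.17 for III, 1.18 for IV and 1.19 for V, and the deeper-zone ratio 0.708, 0.718, 0.737 and 0.678. The complex I sum includes Ndufa4 and Ndufa4l2, which in superficial-zone cells gave 6351 of its 28393 UMIs in pulse and 14846 of 61615 in trace. The nuclear and mitochondrial subunits of 1 complex did not share a ratio: the mt- part of ATP synthase was at 1.84 and 1.88 in the 2 zones. Of 69 members measured in the 4 large classes, 45 were above 0 in superficial-zone and below 0 in deeper-zone cells. This count was not made over all genes, whose medians were -0.23 and -0.37, so it is a description only. In synovial lining cells 4 of 72 were higher (7.43% of all genes) and 8 lower (27.2%), and in loose connective tissue cells 6 of 72 higher (8.7%) and 8 lower (31.4%).

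**Figure D3:**
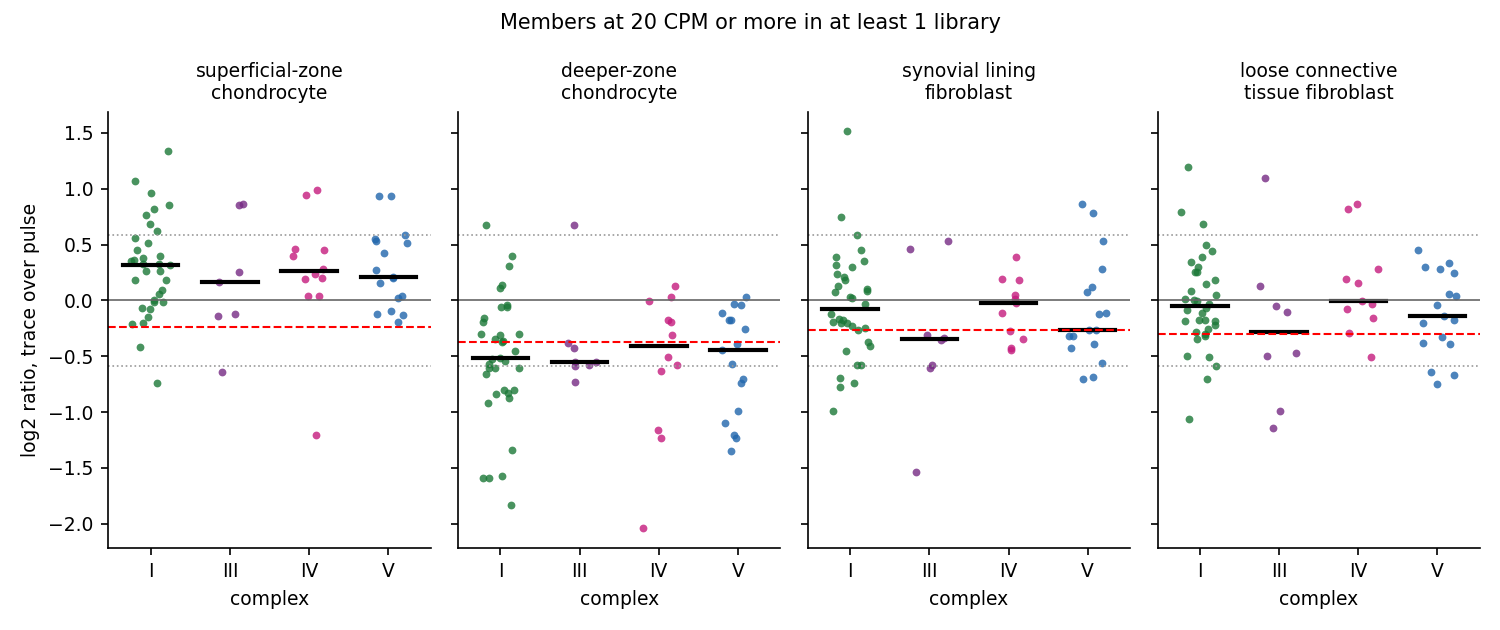
Log2 ratio of trace over pulse for each measured member in the 4 large classes, by complex (points), with the median of each complex (black bar), the median of all genes (red dashed line), 0 (grey line) and 1.5-fold either way (dotted lines). In superficial-zone cells the bars lie above the red line at -0.23, and in deeper-zone cells they lie below the red line at -0.37.

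Among the abundant members grouped under complex I by symbol, Ndufa4l2 was at 359 CPM in pulse and 450 in trace in superficial-zone cells. In deeper-zone cells it was at 308 and 102. Ndufa4l2 is the hypoxia-induced paralog of Ndufa4. Ndufb1-ps was at 143 and 183 CPM in superficial-zone and 333 and 187 in deeper-zone cells; it has no protein-coding transcript in M21. Ndufa2, an accessory subunit, was at 144 and 173 CPM and at 281 and 218. CPM are per 3′ end and were not divided by length, so the order of genes is that of counted transcript ends.

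The complex I members with the widest superficial-zone gap were small accessory subunits. Ndufa1, on the X chromosome and needed for assembly of the membrane arm, was at 34.0 CPM in pulse and 85.7 in trace (2.52-fold, 2.28 to 2.79). Ndufa8 was at 23.1 and 48.5 CPM (2.09-fold, 1.85 to 2.38), and its promoter above holds 1 NRF1 motif. Ndufa5 was at 21.1 and 41.1 CPM and Ndufa13, also known as GRIM-19, at 40.9 and 74.0. In deeper-zone cells the same genes were at 66.3 and 72.8 (Ndufa1), 59.5 and 52.0 (Ndufa8), 55.9 and 38.8 (Ndufa5) and 95.4 and 118 CPM (Ndufa13), without a 1.5-fold gap. The core iron-sulfur subunit Ndufs7 went the other way, at 40.003 and 24.0 CPM in superficial-zone cells (ratio 0.599, 0.532 to 0.674).

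Ndufs7 was lower in trace in deeper-zone cells too, at 64.9 and 21.8 CPM (ratio 0.335, 0.210 to 0.511). So were the core subunit Ndufs8, at 20.2 and 5.68 CPM from 110 and 6 UMIs (interval 0.101 to 0.631), the accessory subunit Ndufv3, at 208 and 69.0 CPM, and Ndufa10, at 36.0 and 14.2 CPM from 196 and 15 UMIs. Ndufv3 and Ndufa10 in superficial-zone cells were within 1.5-fold, at 82.5 and 78.0 and at 20.4 and 20.2 CPM. Ndufa4, now counted as a subunit of complex IV, was at 99.0 and 168 CPM in superficial-zone cells and at 116 and 184 in deeper-zone cells, higher in trace in both.

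In complex III the 3 most abundant members were Uqcrh, the hinge protein, Uqcrq and Uqcr10, both small membrane subunits. Uqcrh was at 227 CPM in pulse and 206 in trace in superficial-zone cells and at 369 and 284 in deeper-zone cells. Uqcrq was at 156 and 174 CPM and at 274 and 183, and Uqcr10 at 142 and 170 and at 280 and 191. These 3 stayed within 1.5-fold in superficial-zone cells. Uqcrb was at 59.3 and 108 CPM there (1.81-fold, 1.68 to 1.97) and Uqcr11 at 64.2 and 116 (1.81-fold, 1.68 to 1.95), both higher in trace. The core subunit Uqcrc1 was at 22.0 and 14.1 CPM (ratio 0.641, 0.547 to 0.750), lower in trace. The Rieske iron-sulfur protein Uqcrfs1 was at 15.4 and 24.6 CPM in deeper-zone cells from 84 and 26 UMIs, and its interval of 0.985 to 2.50 includes no difference.

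In complex IV, Cox7c, Cox4i1 and Cox6c were the most abundant members. Cox7c was at 364 and 442 CPM in superficial-zone and 678 and 548 in deeper-zone cells, Cox4i1 at 259 and 266 and at 558 and 360, and Cox6c at 254 and 289 and at 427 and 300. Each was higher in deeper-zone than in superficial-zone cells in pulse, and in trace Cox7c and Cox4i1 were, while Cox6c had a zone ratio of 1.04 (0.924 to 1.16). Cox7b, on the X chromosome, was at 35.5 and 70.6 CPM in superficial-zone cells (1.99-fold, 1.80 to 2.20) and Cox6b1, on the outer face of the enzyme, at 66.8 and 128 (1.92-fold, 1.78 to 2.07). Neither was 1.5-fold apart in deeper-zone cells, where Cox7b was at 116 and 115 CPM and Cox6b1 at 160 and 174. Cox6a1 was at 84.4 and 35.9 CPM in deeper-zone cells (ratio 0.426) and at 35.6 and 40.8 in superficial-zone cells.

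In ATP synthase, Atp5e, the small epsilon subunit of the stalk, was at 106 and 203 CPM in superficial-zone cells (1.91-fold, 1.80 to 2.03), and Atp5h, subunit d of the peripheral stalk, at 56.4 and 108 (1.91-fold). In deeper-zone cells Atp5e was at 313 and 277 CPM and Atp5h at 110 and 113. The membrane subunits Atp5md and Atp5l were at 179 and 207 and at 127 and 183 CPM in superficial-zone cells. The catalytic beta subunit Atp5b was at 327 and 139 CPM in deeper-zone cells (ratio 0.425, 0.357 to 0.503) and at 151 and 132 in superficial-zone cells. Atp5k was at 151 and 59.6 CPM in deeper-zone cells (0.393, 0.300 to 0.509) and Atp5g1, another subunit c gene, at 179 and 77.6 (0.432).

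Of 69 members measured in all 4 large classes, 6 were above 0 and 11 below 0 in each. Those above 0 in trace over pulse in each include Ndufa4, Cox6b1, Ndufa13, Atp5h and Ndufa1, and those below 0 were Ndufa10, Uqcrh, Ndufa3, Uqcrc2, Ndufb7, Uqcrc1, Ndufs7, Atp5b, Atp5g2, Ndufv3 and Ndufa11. Several lie close to 0 in a class, such as Ndufa3 at -0.01 in superficial-zone cells, and another scaling turns such signs. These counts of signs were not made over all genes, whose median was below 0 in each of the 4 classes. After their values were seen, the 3 X-linked members Ndufa1, Ndufb11 and Cox7b were set apart: their median log2 ratio was 0.99 in superficial-zone and -0.01 in deeper-zone cells, where the other members had 0.25 and -0.54. All X-linked genes had -0.33 and -0.31, and autosomal genes -0.23 and -0.38.

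Within the pulse library the chain was higher in deeper-zone than in superficial-zone cells across nearly all members. Of 72 measured members 59 (81.9%) were at least 1.5-fold higher, where 26.5% of all genes were, and 0 were lower, where 24.3% were. The median log2 ratio was 0.96, beside 0.00 for all genes and 0.26 for like-length genes, of which 34.7% were higher. In trace 8 of 71 (11.3%) were higher, where 15.9% of all genes were, and 3 (4.23%) lower, where 26.7% were, with a median of 0.19 beside -0.18. Ribosomal protein genes were higher in deeper-zone cells in 77 of 84 (91.7%) in pulse, with a median of 1.28. In trace 65 of 84 of them (77.4%) were higher. In pulse, deeper-zone cells also had more UMIs (median 7811 against 2939) and more cycling cells (40.2% against 8.73%). The part of these in the zone gap was not tested. Of 70 members measured in both, 68 were above 0 in pulse and 49 in trace, and 68 had the smaller ratio in trace. These counts were not made over all genes, whose median was also lower in trace, at -0.18 against 0.00 in pulse. The zone ratios in the 2 libraries had Pearson r = 0.55 and Spearman rho = 0.42 across these members, which share libraries and depth.

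The mt- genes kept the zone difference in trace. At least 1.5-fold higher in deeper-zone cells were 10 of 13 in pulse, beside 26.5% of all genes, and 0 were lower, beside 24.3%. In trace 11 of 13 were higher, beside 15.9%, and 1, mt-Nd6, was lower, beside 26.7%. The median log2 ratios of the mt- genes were 1.08 in pulse and 0.82 in trace. Thus mt-Nd4 was at 674 CPM in superficial-zone and 1788 in deeper-zone cells of pulse, and at 811 and 2120 in trace. In contrast mt-Co1 was at 3067 and 2589 CPM in pulse and 4058 and 3583 in trace, lower in deeper-zone cells in both. The zone gap of the nuclear members narrowed from 0.96 to 0.19 while that of the mt- genes went from 1.08 to 0.82. The median of all genes also went from 0.00 to -0.18.

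**Figure D4:**
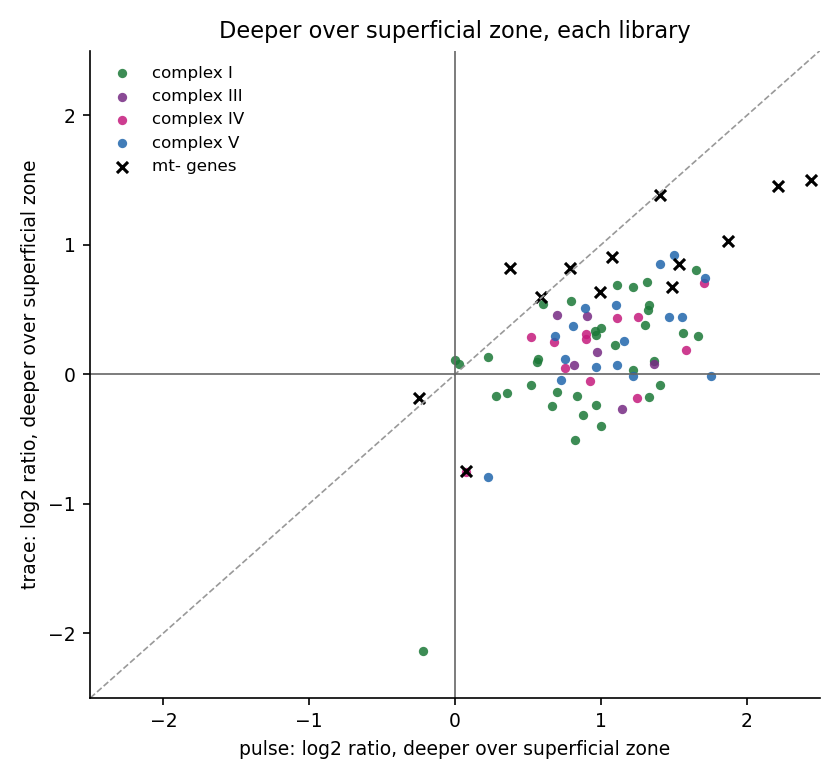
Log2 ratio of deeper-zone over superficial-zone cells in pulse (horizontal) and trace (vertical) for members by complex (coloured points) and mt- genes (crosses); the dashed line marks equal ratios. Of the 70 members 68 lie below the line, and Ndufa4l2 lies lowest at -0.22 in pulse and -2.14 in trace.

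The widest zone gaps in pulse were those of Ndufs8, Atp5k, Atp5g2, Cox7b and Ndufc1. Ndufs8 was at 4.54 CPM in superficial-zone and 20.2 in deeper-zone cells (4.45-fold, 3.24 to 6.17), Atp5k at 44.9 and 151 (3.37-fold) and Atp5g2 at 154 and 503 (3.28-fold, 3.10 to 3.47). Cox7b was at 35.5 and 116 CPM and the accessory subunit Ndufc1 at 51.7 and 164. In trace Atp5k was at 60.2 and 59.6 CPM, Atp5g2 at 141 and 236 (1.67-fold) and Ndufc1 at 70.8 and 87.0, all nearer to each other. The widest gaps in trace were the lower Ndufa4l2 and Atp5j of deeper-zone cells and the higher Atp5o, Atp5c1 and Ndufb5. Ndufa4l2 was at 450 and 102 CPM there (ratio 0.227, 0.186 to 0.274) and the stalk subunit Atp5j at 182 and 105. Atp5o, the subunit that links the stalk to the catalytic head, was at 23.5 and 44.5 CPM, the rotor subunit Atp5c1 at 82.7 and 149, and Ndufb5 at 67.1 and 117.

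Fibroblast-like and mural-like cells also stood above superficial-zone cells. In synovial lining cells 58 of 72 members (80.6%) were higher than in superficial-zone cells in pulse, beside 32.0% of all genes, and 43 of 73 (58.9%) in trace, beside 25% (lower: 28.6% of all genes in pulse and 25.3% in trace, with 3 and 2 members). In loose connective tissue cells 50 of 71 (70.4%) were higher in pulse, beside 34.4%, and 30 of 72 (41.7%) in trace, beside 24.8%, with 4 and 3 lower beside 24.8% and 21.8%. In trace 45 of 74 were higher in mural-like cells (35.2% of all genes) and 2 lower (23.7%), and 49 of 73 were higher in B-lineage-like cells (49.1%) and 2 lower (26.3%). Osteoblast-like cells had 21 of 71 higher (24.4%) and 7 lower (34.3%). Neutrophil-like cells had 17 of 72 higher (30.7%) and 14 lower (44.5%). Endothelial-like cells went the other way, with 2 of 70 higher (37.6% of all genes) and 23 lower (24.2%). Superficial-zone cells were thus low in these genes against every other large class in pulse.

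Members with the NRF1 motif in the promoter were above the other members in median in 1 of 4 comparisons and below them in 3. In deeper over superficial zone in pulse the 9 with the motif had a median log2 ratio of 1.14, beside 0.97 for those without. At least 1.5-fold higher were 7 of 9 with the motif and 43 of 50 without, where 26.5% of all genes were. By count those with the motif were thus not ahead. With so few genes in the group with the motif, these values are a description only. Within trace the medians of the same zone ratio were 0.04 for 8 with the motif and 0.26 for 50 without. In trace over pulse the medians were 0.20 and 0.27 in superficial-zone cells and -0.66 and -0.51 in deeper-zone cells. Within the group with the motif the deeper-zone values ran from -1.35 for Atp5k to -0.04 for Atp5l.

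Some subunits exist as tissue isoforms, whose share within a pair does not depend on the total. Cox4i2 is the isoform of subunit 4 that responds to low oxygen, and Cox4i1 the common form. Cox4i2 was at 129 CPM in pulse and 55.8 in trace in superficial-zone cells (ratio 0.432, 0.403 to 0.464) and at 136 and 33.1 in deeper-zone cells (0.243, 0.168 to 0.342). Its share of the pair was 33.2% (32.0 to 34.5) and 17.3% (16.5 to 18.2) in superficial-zone cells, and 19.6% (18.3 to 20.9) and 8.41% (5.93 to 11.5) in deeper-zone cells. The share was lower in trace in both zones, with intervals that do not overlap. In mural-like cells it was 20.0% (4 of 20 UMIs) and 12.9% (47 of 365).

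Outside the zones and mural-like cells Cox4i2 was near or below the level of the B-lineage-like cells of trace. It made up 1.54% and 0.447% of the pair in synovial lining cells and 0.418% and 0.706% in loose connective tissue cells, beside 1.52% in the B-lineage-like cells of trace. At least 1 Cox4i2 UMI was seen in 28.6% and 18.5% of superficial-zone cells, and in 2.08% of B-lineage-like cells, whose median depth was 1873 UMIs. In trace the superficial-zone share of the pair, 17.3%, lies above the level of the B-lineage-like cells. For pulse no B-lineage-like value is given. There Cox4i2 had 0 of 67 UMIs of the pair in endothelial-like cells (interval 0 to 5.36%) and 0 of 38 in osteoblast-like cells (0 to 9.25%). The superficial-zone share in pulse was 33.2%.

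Ndufa4l2 outnumbered Ndufa4 in both zones except in the deeper-zone cells of trace. Its share of their summed UMIs was 78.4% (77.3 to 79.4) and 72.8% (72.1 to 73.5) in superficial-zone cells, and 72.7% (70.8 to 74.5) and 35.6% (30.2 to 41.3) in deeper-zone cells. In mural-like cells it was 80.0% (4 of 5 UMIs) and 78.1% (171 of 219). It was 61.7% and 39.97% in synovial lining cells and 71.9% and 51.2% in loose connective tissue cells. In trace it was 27.1% in osteoblast-like cells (19 of 70 UMIs), 12.0% in endothelial-like (18 of 150) and in neutrophil-like cells (14 of 117), and lower in B-lineage-like (6.55%) and progenitor-like cells (0.926%). The share was lower in trace in each of the 4 large classes, but Ndufa4l2 itself was not. It was at 359 and 450 CPM in superficial-zone and 80.3 and 94.6 in synovial lining cells, higher in trace. In deeper-zone cells it was at 308 and 102 CPM and in loose connective tissue cells at 162 and 114. Ndufa4 was higher in trace in each, as in synovial lining cells at 49.8 and 142 CPM. Both genes are counted per 3′ end, and exons of Ndufa4l2 overlap the opposite-strand gene Shmt2, whose reads can be told apart only if strand was used.

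**Figure D5:**
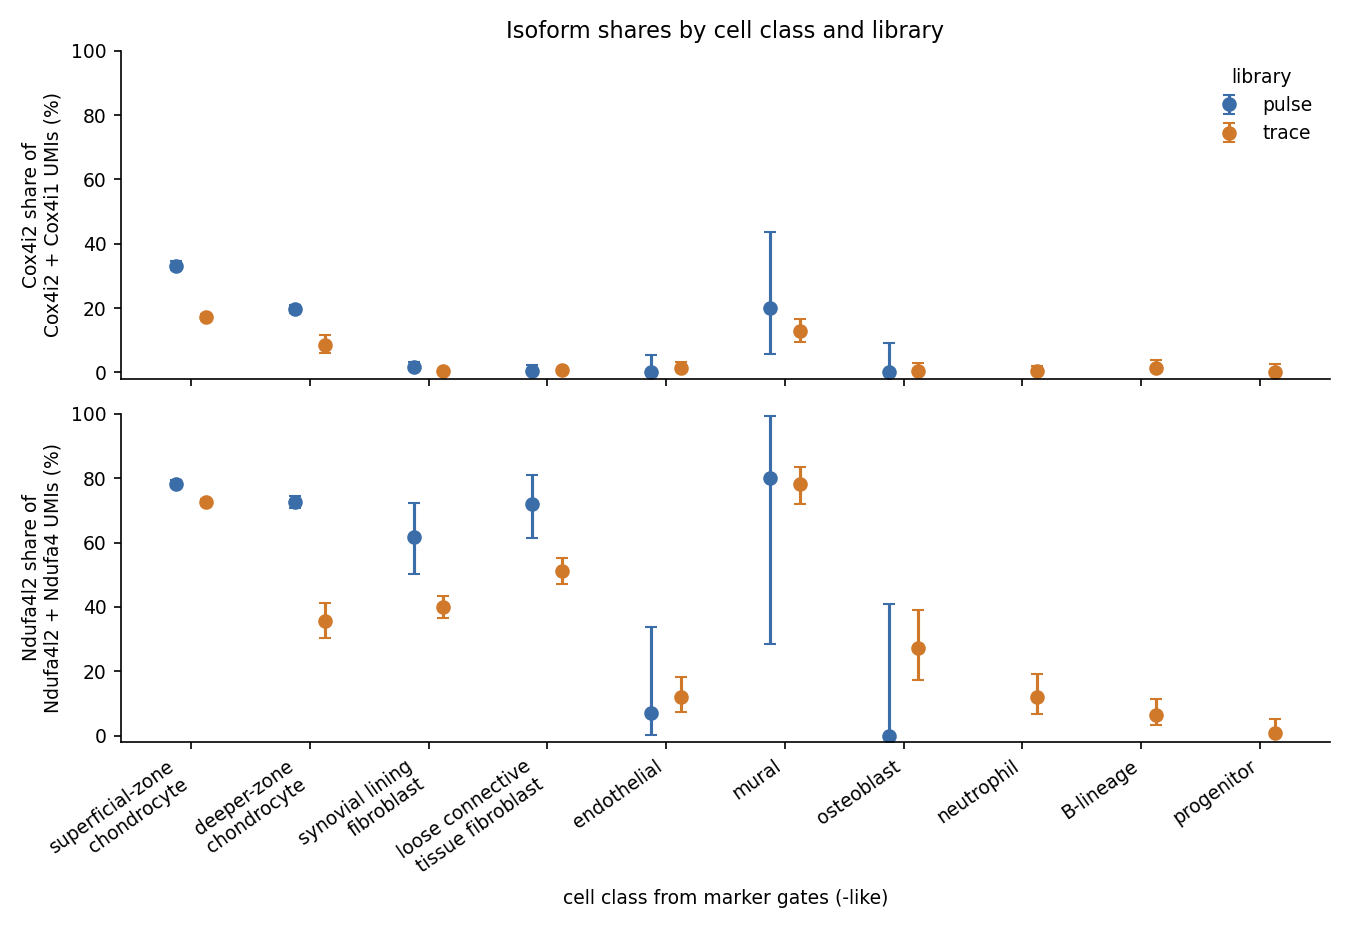
Share of Cox4i2 in Cox4i2 and Cox4i1 UMIs (top) and of Ndufa4l2 in Ndufa4l2 and Ndufa4 UMIs (bottom), in percent, by class in the pulse (blue) and trace (orange) library; whiskers are exact 95% intervals for counting error. Cox4i2 is high in both chondrocyte zones and mural-like cells and is 33.2% in pulse and 17.3% in trace in superficial-zone cells; Ndufa4l2 is 72.7% in pulse and 35.6% in trace in deeper-zone cells.

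Several tissue-restricted forms were scarce. Cox6a2, the heart and muscle form, had 2 of 1142 UMIs of the Cox6a1 and Cox6a2 pair in pulse and 12 of 2027 in trace over all cells. The heart and muscle form Cox8b had 0 and 1 UMI, and Cox8c had 0 and 2. Cox7a1 was 0.742% and 0.697% of the Cox7a1 and Cox7a2 pair in superficial-zone cells and 6.17% (15 of 243) in mural-like cells of trace. Cox6b2, the testis form, was 0.430% and 0.614% of its pair in superficial-zone cells and 15.1% (13 of 86 UMIs) in the 22 progenitor-like cells. Among the 3 genes for subunit c, Atp5g1 gave 24.8% and 26.8% of their UMIs in superficial-zone cells and Atp5g2 49.5% and 48.2%. In deeper-zone cells Atp5g1 gave 21.8% and 19.0% and Atp5g2 61.2% and 57.8%, the rest being Atp5g3. Cox7a2l, which joins complexes III and IV, made up 29.7% and 24.8% of the Cox7a2 and Cox7a2l UMIs in superficial-zone cells.

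Other mitochondrial genes were counted by list. Of the mitochondrial ribosome, 37 of 52 measured genes were higher in deeper-zone than in superficial-zone cells in pulse (71.2%, beside 26.5% of all genes) and 6 of 36 in trace (16.7%, beside 15.9%), so the trace count is near the background. In trace over pulse, beside 7.29% of all genes higher and 23.5% lower in superficial-zone cells and 8.17% higher and 37.2% lower in deeper-zone cells, 4 were higher and 5 lower of 38 in superficial-zone cells, and 1 higher and 25 lower of 51 (49.0%) in deeper-zone cells. The lists that follow hold few genes, and their counts are set beside the same shares as a description only. Of the tricarboxylic acid cycle, 6 of 12 were lower in deeper-zone cells and 0 higher, and in superficial-zone cells 0 of 10 were lower and 1 higher. Complex II, the succinate dehydrogenase that feeds electrons to the chain and is encoded by 4 nuclear genes, had 1 higher of 4 in superficial-zone and 1 lower of 4 in deeper-zone cells. Of 7 carriers and cytochrome c genes 3 were lower in deeper-zone cells. The list of regulators, which holds Ppargc1a, Nrf1, Gabpa, Hif1a and Epas1 among others, had 6 measured genes in superficial-zone cells. Of these 3 were lower and 0 higher in trace. Which genes of the list these were is not given here, so the count does not speak for any named regulator. Ribosomal protein genes had 50 higher and 2 lower of 82 in superficial-zone cells, a larger share than the members.

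Counting limits bear on single genes. Exons of 31 members overlap another gene in M21, 5 of them on the same strand, so their counts are uncertain where the counting could not tell the genes apart. Among them, Cox4i1 overlaps Emc8 and Atp5j overlaps Gabpa.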

How the data were processed

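The authors deposited whole-number UMI counts per gene and barcode for 2 libraries, with no normalization, per the file headers. These headers name Cell Ranger 7.1.0, whereas the submitters' processing notes name Cell Ranger 3.0.1, STAR, HTSeq, Seurat and DESeq2 with mm10, without roles. How introns and strand were treated, and the annotation release, is not given in the sources used here. GENCODE M21 held 32158 (99.6%) of the feature IDs.

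Cells with at least 500 genes and at most 10% mt- UMIs were kept. A cell took the class with the most distinct markers detected, if it had at least 3, and 1 more than any other of the 11 classes. Chondrocytes then took the zone with more markers detected, from 3 for superficial and 5 for deeper. UMIs were summed per class and library and scaled to CPM. Depth was 23306063 UMIs in pulse and 40284041 in trace. Ratios have exact conditional Poisson and shares exact Clopper-Pearson 95% intervals, which cover counting error only. Member counts between libraries are given for 4 classes, since in the smaller ones 20 CPM is a few UMIs. Named genes were the 3 most abundant members of each complex, up to 10 per direction past 1.5-fold in each zone at 20 CPM or more, the 5 widest zone gaps per library, tissue isoforms and the mt- genes. Members, lists and rules were chosen with earlier results of these data known, and the limit to 4 classes after the data were seen. Scrublet, run through scanpy 1.11.5, marked 0 of 6533 and 0 of 9247 cells at its own threshold, which is taken as a failure to call. Doublets were therefore kept, and leaving out the 5% highest scores was an alternative. The calculation was tested on simulated data. Tools were scipy 1.17.1 (intervals), pandas 2.3.3 with numpy 2.4.6, and matplotlib 3.10.9 for plots, under Python 3.11.15. Single values of 1 member are not reported here.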

Additional observations from a re-analysis of the deposited data

Results flagged for a closer look

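The trace over pulse ratio of the summed nuclear share was 1.21 in superficial-zone and 0.708 in deeper-zone chondrocyte-like cells. These values were picked out because the 2 classes moved in opposite directions under the same contrast. Each rests on 1 library per group, and the difference between the classes was not tested.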

How the results depend on the processing

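No paired analysis was possible because each group is 1 library and the labels give no replicate numbers. For the same reason no replicate could be left out. The trace over pulse ratio of the nuclear share was above 1 in superficial-zone cells under 13 of 13 alternatives (1.14 to 1.42) and below 1 in deeper-zone cells under 12 of 12 (0.692 to 0.917). It was below 1 under 9 of 11 in synovial lining and 8 of 11 in loose connective tissue cells. None of these alternatives kept only shallow cells. In superficial-zone cells under 2000 UMIs the order was reversed, at 0.697% in pulse and 0.557% in trace. Leaving out cycling cells, cells with connective markers, or cells under 5000 UMIs was chosen after seeing the data. Where values moved, the cause was not tested. Member counts under the alternatives are given without the share of all genes under the same setting, and are a description only.

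With at least 1000 genes per cell, the superficial-zone share was 0.599% in pulse and 0.734% in trace, the ratio 1.23, and nuclear over mt- UMIs 0.566 and 0.563; the ratio was 0.957 in synovial lining and 0.990 in loose connective tissue cells, with 8 and 10 members higher in trace. With at least 2 markers the share was 0.609% (superficial, pulse) and 1.13% and 0.801% (deeper), nuclear over mt- 0.638 and 0.396 (deeper), and the osteoblast-like ratio turned to 0.960. With at least 4 markers the share was 0.5999% (superficial, pulse) and 1.19% (deeper, pulse), the deeper-zone ratio 0.692, nuclear over mt- 0.685 (deeper, pulse), and 2 members were lower in loose connective tissue than in superficial-zone cells in pulse. Without the 5% highest Scrublet scores the share was 0.6002% (superficial, pulse) and 1.17% (deeper, pulse), and nuclear over mt- 0.560 and 0.560 (superficial) and 0.666 (deeper, pulse).

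Among cells with 5000 or more UMIs the share was 0.567% (superficial, pulse) and 1.17% (deeper, pulse), the superficial-zone ratio 1.29, nuclear over mt- 0.581 and 0.548 (superficial) and 0.687 (deeper, pulse), the Cox4i2 share 18.5% and the Ndufa4l2 share 70.2% (superficial, trace), and 1 member was lower in trace in superficial-zone cells. Without cycling cells the share was 0.5999% and 0.721% (superficial) and 1.12% and 0.839% (deeper), the deeper-zone ratio 0.751, nuclear over mt- 0.542 and 0.549 (superficial) and 0.633 (deeper, pulse), and 14 members were higher in the deeper zone in trace. Without cells with connective markers the superficial-zone share was 0.597% and 0.726%, nuclear over mt- 0.544 and 0.551, and the Cox4i2 share 34.7% in pulse. With at most 5% mt- UMIs nuclear over mt- was 0.559 and 0.561 (superficial) and 0.672 (deeper, pulse), and the osteoblast-like ratio turned to 0.967.

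With mt- and ribosomal RNA-associated UMIs out of the total, the share was 0.617% and 0.811% (superficial) and 1.19% and 0.931% (deeper). The ratios were then 1.31, 0.783, 0.985 (synovial lining) and 1.02 (loose connective, turned), with 9 members higher and 4 lower in synovial lining and 4 lower in loose connective tissue cells. With ribosomal protein UMIs out as well, the share was 0.653% and 0.896% (superficial) and 1.37% and 1.12% (deeper), and the ratios 1.37, 0.812, 1.01 and 1.07, the last 2 turned. In superficial-zone, synovial lining and loose connective tissue cells 27, 10 and 10 members were then higher and 1, 3 and 3 lower in trace, and 21 were higher in the deeper zone in trace. As a mean over cells the superficial-zone share was 0.626% and 0.711%, the ratios 1.14 (superficial), 0.845 (synovial lining), 0.883 (loose connective) and 0.9997 (osteoblast-like, turned), and nuclear over mt- 0.539 and 0.539 (superficial) and 0.610 and 0.394 (deeper). Divided by the median ratio of all genes, the ratios were 1.42, 0.917, 1.07 and 1.14, the last 2 turned, with 29, 4, 12 and 14 members higher and 1, 13, 2 and 3 lower (superficial, deeper, synovial lining, loose connective), and 20 higher in the deeper zone in trace.

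A floor of 50 CPM left 1 member higher in trace in deeper-zone and 1 lower in superficial-zone cells. At a fold of 5/4, 31 (superficial), 12 (synovial lining) and 12 (loose connective) were higher and 46 (deeper), 22 (synovial lining) and 18 (loose connective) lower in trace; 25 were higher and 5 lower in the deeper zone and 48 higher in loose connective tissue cells, within trace. At 2-fold, 2, 0, 1 and 2 were higher and 1, 12, 1 and 2 lower in trace (superficial, deeper, synovial lining, loose connective). Against the superficial zone at 2-fold, 32 (deeper) and 28 (loose connective) were higher and 2 (loose connective) lower in pulse, and 0 (deeper), 16 (synovial lining) and 7 (loose connective) higher and 1 (deeper) lower in trace. Like-length genes between the 25th and 75th percentile of member length had ratios of 1.17 (superficial, turned), 0.956, 0.968 and 0.954 (deeper, synovial lining, loose connective).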
